A study of Salvia miltiorrhiza with 5 samples.

Results

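In hairy roots of Salvia miltiorrhiza, 100 assembled unigenes were chosen because their levels were low at both sampled times after methyl jasmonate (MeJA), and their levels after yeast extract (YE) were then described. A unigene is a transcript sequence put together from the reads without a genome. Levels were compared as r, the ratio (RPKM + 1) over (control RPKM + 1), where RPKM is the read count scaled to the length of the unigene in kilobases and to the total of counted reads in the library, as is usual for this measure. Of 55588 unigenes, 23297 had at least 100 reads in the control library, and 595 of these had r under 0.5 at both MeJA times and were on none of the study's lists of candidate pathway genes, cytochrome P450s and transcription factors. The 100 with the lowest larger r of the pair were kept, and 495 stayed outside. Those lists hold 565 unigenes, 250 of them with at least 100 control reads, and 0 of these met the thresholds. The lists of cytochrome P450s and transcription factors were drawn up from unigenes raised by the elicitors in these same libraries, so for those the 0 follows in part from how they were made.

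The study compared elicited hairy roots with untreated ones to look for genes of tanshinone and phenolic acid synthesis. There were 5 RNA-seq libraries, 1 for each condition: the control at 0 h, MeJA-1h and MeJA-6h, and YE-1h and YE-12h. All came from hairy roots that had been grown in shake flasks for 40 days and that arose from leaf pieces infected with a disarmed Agrobacterium tumefaciens strain C58C1 carrying pRiA4, a root-inducing plasmid. MeJA was given in ethanol at 0.1 mM, and YE was the ethanol-precipitated fraction of yeast extract. Each library came from a mix of 3 replicate samples, so no library has a replicate and the spread between cultures is unknown. The study does not state whether the 3 were separate cultures. No library was taken at 1, 6 or 12 h without an elicitor, or with ethanol alone, and for each elicited library the effects of the elicitor, of time and of the solvent cannot be told apart. The counted reads came to 13395770 in the control, to 16070622 and 15789097 after 1 h and 6 h of MeJA, and to 19055712 and 20358510 after 1 h and 12 h of YE.

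Jasmonates are plant hormones of wounding and defence. In Arabidopsis, the active jasmonate brings the F-box receptor COI1 together with JAZ repressors, the repressors are degraded, and transcription factors such as MYC2 are set free, which raise some genes and lower others. Yeast extract carries fungal wall fragments, which plant cells perceive as signs of a microbe, and in Salvia roots both agents are used as elicitors of secondary metabolites. The files do not pair any of the 100 unigenes with a gene name, no unigene sequence was used here, and 0 of the names matched the RefSeq gene table, so the members are given by their deposited names and no function is attached to any of them. The labelled tissue could not be checked from the members for the same reason.

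The members were well measured in the control and thinly measured after MeJA. The control level ran from 7.19 to 355 RPKM with a median of 22.1, on 100 to 13881 reads with a median of 264.5. The median level was 3.94 RPKM at MeJA-1h and 3.42 RPKM at MeJA-6h, then 10.5 RPKM at YE-1h and 9.35 RPKM at YE-12h. Together the 100 unigenes took 0.45% of the control reads, 0.0854% and 0.0961% of those after 1 h and 6 h of MeJA, and 0.281% and 0.21% of those after 1 h and 12 h of YE. Their summed share after YE thus lay between that of the control and that of both MeJA libraries. The highest of the 5 levels was in the control for 84 members, at YE-1h for 11 and at YE-12h for 5. Among 15946 unigenes with at least 100 control reads and a control level no lower than that of the lowest member, these shares were 44.9%, 17.4% and 15.9%. The lowest level was at MeJA-6h for 50 members, at MeJA-1h for 46, and at each YE time for 2. Among the 15946 unigenes it was at MeJA-6h for 27.2%, at MeJA-1h for 32.4%, at YE-1h for 22.6% and at YE-12h for 11.7%. The choice of unigenes high in the control and low with MeJA bears directly on these counts. In a whole culture, fewer cells of a type and less RNA per cell cannot be told apart.

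The members were chosen by their values in the control, MeJA-1h and MeJA-6h libraries, so these values are given as a description with no test. The median r was 0.245 at MeJA-1h and 0.226 at MeJA-6h, and r was under 0.25 for 53 and 61 members. On the log2 scale r at MeJA-1h ran from -4.71 to -1.60, and the MeJA-6h values spanned -3.84 to -1.61. All 100 members were under 0.5 by the rule. Among the 23297 unigenes with at least 100 control reads, 5.22% had r under 0.5 at MeJA-1h and 6.76% at MeJA-6h. At the limit, SmiContig5501 and SmiContig3803 were the last members, with a larger r of 0.3274 and 0.3296, and c5850_Sye-12h_g1_i1 and SmiContig1300 were the first outside, with 0.3298 and 0.3318. The limit therefore fell in a continuum and does not separate kinds of unigene.

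**Figure D1:**
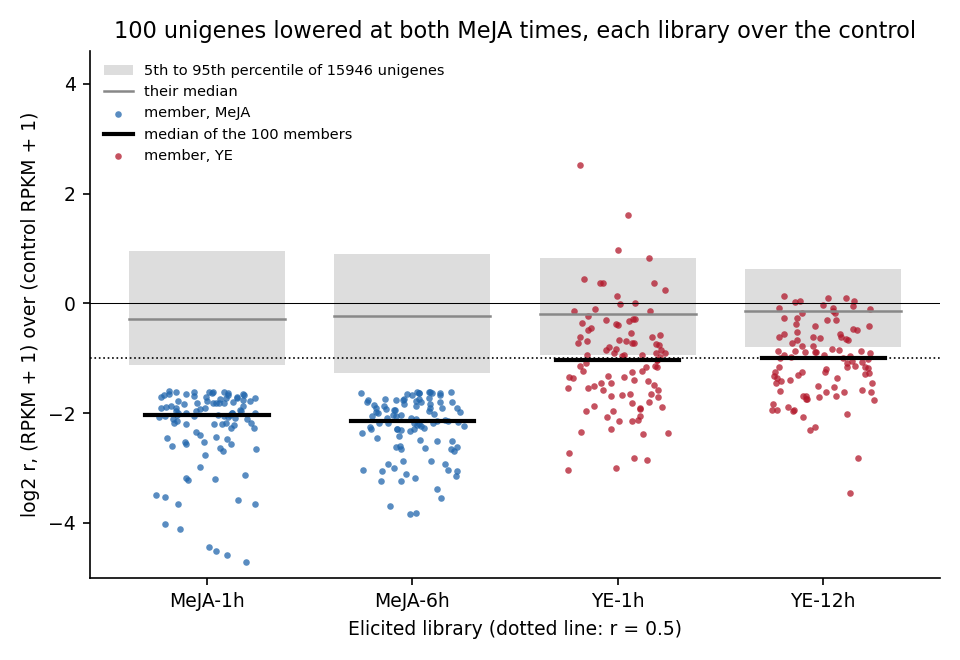
Log2 r of each of the 100 members (points) in the 4 elicited libraries, with the members' median (black bar) beside the 5th to 95th percentile (grey box) and median (grey bar) of 15946 unigenes with at least 100 control reads and a control level no lower than that of the lowest member. The MeJA points all lie below the dotted line at r of 0.5 by construction, and the YE points spread across it, with a YE-1h median of -1.03 and a YE-12h median of -0.99.

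The lowest larger r of the MeJA pair belonged to c577_Sye-12h_g1_i1 and SmiContig2918, whose implied lengths were 890 and 868 bp. c577_Sye-12h_g1_i1 had 16.4 RPKM in the control on 195 reads, 0.0697 on 1 read and 0.213 on 3 reads after 1 h and 6 h of MeJA, and 1.41 on 24 reads and 17.6 on 319 reads after 1 h and 12 h of YE. SmiContig2918 had 16.2 RPKM in the control on 189 reads, 0 on 0 reads and 0.218 on 3 reads after 1 h and 6 h of MeJA, and 1.14 on 19 reads and 16.6 on 294 reads after 1 h and 12 h of YE. Both were thus near the limit of detection after MeJA, low at YE-1h and at the control level at YE-12h. With the library at 0 set to a floor of 3 reads, SmiContig2918 was at least 75.6-fold lower at MeJA-1h than in the control. For c577_Sye-12h_g1_i1 the single read at MeJA-1h gave a read ratio to the control of 0.00427, with an exact 95% interval of 0.000108 to 0.0241. At YE-12h the read ratios were 1.08 (95% interval 0.898 to 1.29) for c577_Sye-12h_g1_i1 and 1.02 (0.85 to 1.24) for SmiContig2918, so a difference from the control was not detectable at this depth. These were the only 2 members with 3 or fewer reads in a library. Reads shared by unigenes of near-identical sequence cannot be told apart in these counts, and that was not tested for this pair. All such intervals cover counting error alone, without the spread between cultures. Those on ratios to the control also make no allowance for the choice of members, which used the control and MeJA libraries.

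The next members by size of the MeJA difference had far more reads. SmiContig22997 had 49.8 RPKM in the control, 3.24 and 3.36 after 1 h and 6 h of MeJA, and 6.66 and 24.7 after 1 h and 12 h of YE. SmiContig26747 had 115 RPKM in the control, 11.5 and 11.3 after 1 h and 6 h of MeJA, and 35.4 and 33.1 after 1 h and 12 h of YE. In both, the 2 MeJA libraries were nearly equal, whereas at YE-12h SmiContig22997 stood well above its YE-1h level and SmiContig26747 did not. The read ratios of SmiContig26747 to the control were 0.1 (95% interval 0.0845 to 0.118) at MeJA-1h and 0.0981 (0.0826 to 0.116) at MeJA-6h, and 0.309 (0.28 to 0.34) at YE-1h and 0.288 (0.261 to 0.318) at YE-12h.

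Between the MeJA times most members stayed within 2-fold, but a smaller share of them than of other unigenes. The median log2 ratio of (RPKM + 1) at MeJA-6h to MeJA-1h was -0.03, 83 members were within 2-fold, 10 were over 2-fold higher at MeJA-6h and 7 were under 0.5 of the MeJA-1h value. Among the 15946 unigenes the shares were 94.2%, 2.25% and 3.56%. Both libraries were used by the rule, so the difference was not tested. The extremes were -1.80 for SmiContig3936 and 2.80 for SmiContig12149, both named here after their values were seen. SmiContig12149 had 115 RPKM in the control, 3.43 and 29.8 after 1 h and 6 h of MeJA, and 25.2 and 39.2 after 1 h and 12 h of YE. SmiContig3936 ran the other way, with 31.6 RPKM in the control, 7.80 and 1.53 after 1 h and 6 h of MeJA, and 31.7 and 7.01 after 1 h and 12 h of YE. So SmiContig12149 was lowest at MeJA-1h and part of the way back at MeJA-6h, and SmiContig3936 was at the control level at YE-1h and low in the other 3 elicited libraries.

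Several abundant members shared the early low point. c15227_Smj-6h_g1_i1, one of the 3 most abundant in the control, had 124 RPKM in the control, 4.18 and 33.6 after 1 h and 6 h of MeJA, and 27.3 and 40.4 after 1 h and 12 h of YE. c22876_Smj-1h_g1_i3, named after its values were seen, had 77.5, 5.22, 23.8, 20.2 and 28.3 RPKM in the same order. SmiContig19336 had 61.3 RPKM in the control, 1.74 and 13.6 after 1 h and 6 h of MeJA, and 6.63 and 15.9 after 1 h and 12 h of YE. All 3 were lowest at MeJA-1h and stayed under 0.5 of the control in every elicited library. For c15227_Smj-6h_g1_i1 the read ratio to the control was 0.0336 (95% interval 0.0263 to 0.0424) at MeJA-1h and 0.271 (0.247 to 0.298) at MeJA-6h. Of the 10 members over 2-fold higher at MeJA-6h than at MeJA-1h, 8 had r under 0.5 at YE-1h, and 9 did at YE-12h, with median log2 r of -2.01 and -1.69. Of the 83 within 2-fold, 40 and 37 did, with medians of -0.96 and -0.88. Of the 7 that went lower at MeJA-6h, 3 and 3 did, with medians of -0.90 and -0.99. All of these ratios share the control library with the rule, and the difference between the 3 sets was not tested. The 10 include SmiContig12149 and c15227_Smj-6h_g1_i1, which had like levels in every library, and whether both come from 1 gene was not tested.

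**Figure D2:**
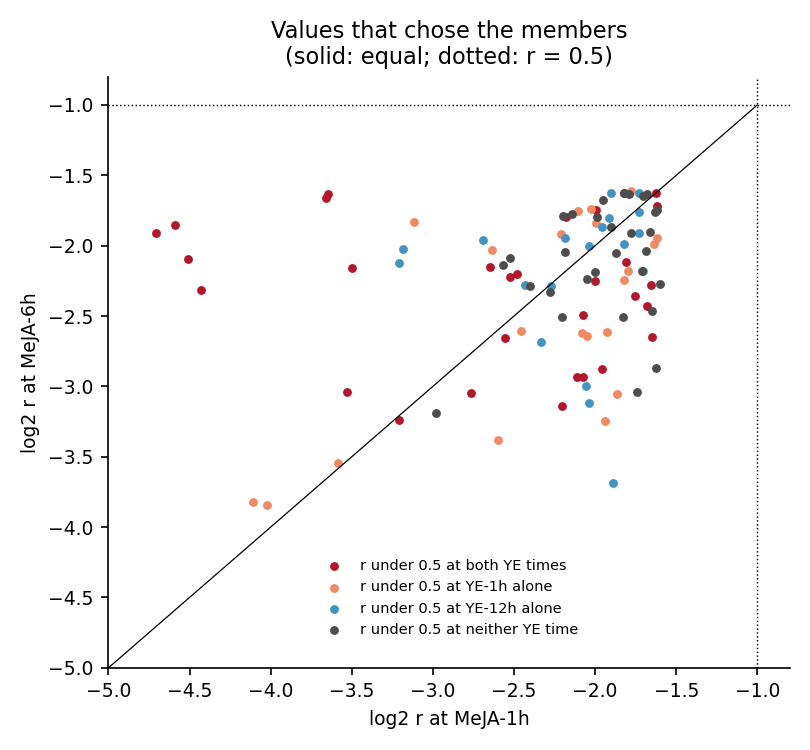
Log2 r at MeJA-1h (horizontal axis) and at MeJA-6h (vertical axis) for the 100 members, coloured by whether r was under 0.5 at the YE times, with the line of equal values (solid) and the rule's limit (dotted). The 10 members over 2-fold higher at MeJA-6h lie to the upper left, and most points lie within 2-fold of the line.

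With yeast extract, about 1 member in 2 was low. At YE-1h 51 members had r under 0.5, beside 3.28% of the 23297 unigenes with at least 100 control reads, and at YE-12h 49 did, beside 1.96%. Among the 15946 unigenes of at least the lowest member's control level the shares were 4.26% and 2.62%. Among the 495 that met the MeJA thresholds less deeply they were 26.5% and 18.2%. The share thus went down in steps from the members to the unigenes just outside and to all unigenes at both YE times. The ratios at YE use the control library that also chose the members, so an unusually high control value lowers all 4 ratios of a unigene together, and the comparison is a description without a test.

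The differences were smaller with YE than with MeJA, and the choice made on the lowest MeJA values bears on this. Among the 15946 unigenes the median log2 r with MeJA was -0.29 at 1 h and -0.23 at 6 h, also lower than with YE. How much of the gap comes from the choice was not tested. The median log2 r of the members was -1.03 with YE at 1 h and -0.99 at 12 h, beside -0.19 and -0.13 among the 15946 unigenes and -0.61 and -0.60 among the 495. Single members spanned -3.03 to 2.52 at YE-1h, and at YE-12h they spanned -3.46 to 0.13. There were 14 members under 0.25 at YE-1h and 6 at YE-12h, beside 0.307% and 0.119% of the 15946 unigenes. r was under 1 for 89 members at YE-1h, for 94 at YE-12h, beside 72.2% and 67.0% of the 15946 unigenes. The counts were 87 and 88 when the libraries were scaled by TMM, a scaling by the bulk of unigenes that moved every log2 r up, by 0.28 and 0.24 for the MeJA libraries and by 0.15 and 0.16 for the YE libraries, the 1 h library first. With that scaling all 100 stayed under 0.5 at both MeJA times, and 48 and 43 were under 0.5 at the YE times. At the other end, 2 members had r over 2 at YE-1h, where the share among the 23297 unigenes was 3.72%, and 0 at YE-12h, where it was 1.97%.

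The YE values divided the members by time. r was under 0.5 at both YE times in 30, at YE-1h alone in 21, at YE-12h alone in 19 and at neither in 30. The same classes held 0.847%, 3.41%, 1.77% and 94.0% of the 15946 unigenes and 7.27%, 19.2%, 10.9% and 62.6% of the 495. The classes were cut at a fixed ratio, so members near r of 0.5 pass from one class to another with small differences in level. The 30 low at both times had a median level of 27.9 RPKM in the control, 3.98 and 5.06 after 1 h and 6 h of MeJA, and 7.89 and 7.64 after 1 h and 12 h of YE. The 21 low at YE-1h alone went from 16.2 in the control through 2.82, 3.22 and 4.61 at MeJA-1h, MeJA-6h and YE-1h to 10.9 at YE-12h. That the first class stayed low at YE-12h and the second did not follows from how the classes were cut. The median of the second class at YE-12h was part of the way back to the control. The 19 low at YE-12h alone had medians of 24.6, 5.25, 4.54, 18.1 and 8.52 RPKM in the control, MeJA-1h, MeJA-6h, YE-1h and YE-12h. The 30 low at neither time had medians of 16.0, 3.98, 3.26, 13.3 and 12.7 RPKM, and their median log2 r was still under 0, at -0.51 and -0.56 with YE. By control level, of the 50 with the lower control level, 23 were under 0.5 at YE-1h, 18 were so at YE-12h, and of the 50 with the higher level 28 and 31 were. The 1 RPKM added in r draws ratios toward 1 most at low levels. With 0.1 RPKM added instead, 55 and 54 of the same 100 members were under 0.5 at YE-1h and YE-12h. How much the added RPKM bears on the split by control level was not tested.

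**Figure D3:**
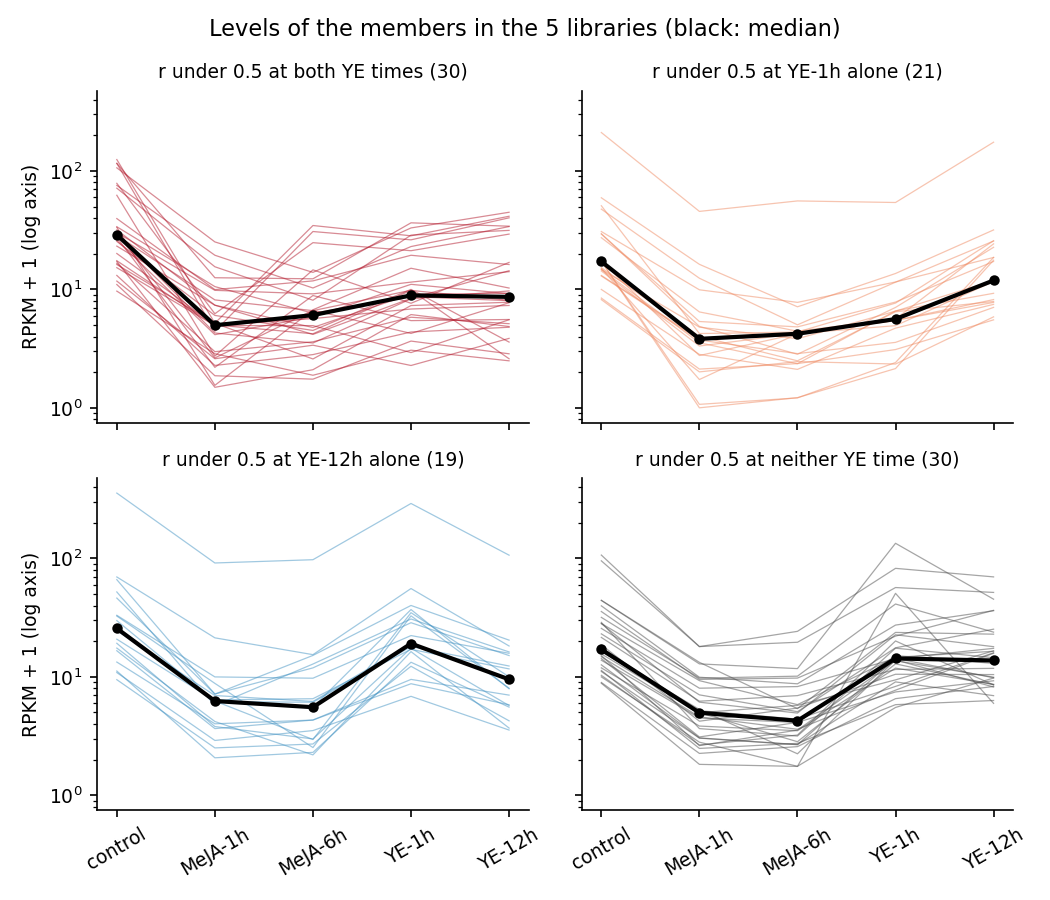
RPKM + 1 (log axis) in the 5 libraries for each member (thin lines) and the class median (black), in 4 panels by whether r was under 0.5 at both YE times (30), at YE-1h alone (21), at YE-12h alone (19) or at neither (30). Every class median has its low point with MeJA, and the panels differ in the YE libraries, which is what the classes were cut on.

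The most abundant members went in different ways with YE. SmiContig20584, the most abundant, had 355 RPKM in the control on 13881 reads, 90.4 and 96.4 after 1 h and 6 h of MeJA, and 290 and 105 after 1 h and 12 h of YE. SmiContig20026, the next, had 210 RPKM in the control on 3595 reads, 44.5 and 54.8 after 1 h and 6 h of MeJA, and 53.1 and 174 after 1 h and 12 h of YE. SmiContig20584 was thus near the control at YE-1h and low at YE-12h, and SmiContig20026 the reverse. The read ratios of SmiContig20584 to the control were 0.816 (95% interval 0.798 to 0.835) at YE-1h and 0.297 (0.288 to 0.306) at YE-12h. Those of SmiContig20026 were 0.253 (0.237 to 0.27) at YE-1h and 0.827 (0.792 to 0.865) at YE-12h.

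The lowest YE-1h values were those of SmiContig19336 and SmiContig2918, described above with MeJA, at log2 r of -3.03 and -3.01. Read ratios to the control were 0.108 (95% interval 0.0892 to 0.13) for SmiContig19336 and 0.0707 (0.0416 to 0.113) for SmiContig2918. At YE-12h the lowest were SmiContig118 and SmiContig3591. SmiContig118, a short unigene of 400 bp, had 27.6 RPKM in the control, 7.15 and 5.61 after 1 h and 6 h of MeJA, and 8.82 and 1.59 after 1 h and 12 h of YE, where it had 13 reads. SmiContig3591 had 24.4 RPKM in the control, 5.03 and 3.50 after 1 h and 6 h of MeJA, and 8.99 and 2.59 after 1 h and 12 h of YE, where it had 38 reads. In these 2 members the level at YE-12h was under both MeJA levels. Their read ratios to the control at YE-12h were 0.0578 (95% interval 0.0301 to 0.102) and 0.106 (0.0735 to 0.15).

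Only a few members were high with YE. SmiContig2326 had 7.83 RPKM in the control on 141 reads, 0.825 and 0.753 after 1 h and 6 h of MeJA, and 49.7 on 1273 reads and 4.97 on 136 reads after 1 h and 12 h of YE. SmiContig29625 had 43.2 RPKM in the control, 11.9 and 10.7 after 1 h and 6 h of MeJA, and 133 and 44.2 after 1 h and 12 h of YE. At 1 h after elicitation, therefore, these 2 unigenes were low with MeJA and high with YE. Read ratios to the control at YE-1h were 6.35 (95% interval 5.33 to 7.61) for SmiContig2326 and 3.08 (2.9 to 3.28) for SmiContig29625. At YE-12h they were 0.635 (0.498 to 0.809) and 1.02 (0.953 to 1.1), so the higher level was seen at YE-1h alone. The highest ratio to the control at YE-12h was that of SmiContig2181, with 22.1 RPKM in the control, 6.04 and 4.08 after 1 h and 6 h of MeJA, and 16.6 and 24.3 after 1 h and 12 h of YE. Its read ratio at YE-12h was 1.1 (0.912 to 1.33), and its interval holds 1.

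YE-12h was compared with YE-1h by a test on reads, since neither library was used in choosing the members. The binomial test of edgeR was run on the 55559 unigenes that had any read in these libraries, with Benjamini-Hochberg adjustment, and a unigene was called at a false discovery rate under 0.01 with an RPKM ratio over 2 or under 0.5. It compares these 2 libraries, not the 2 conditions. Of the members 20 were higher at YE-12h, beside 3.92% of all unigenes tested, and 17 were lower, beside 6.99%. Among the 15946 unigenes of at least the lowest member's control level the shares were 4.12% higher and 4.31% lower, and among the 495 they were 8.89% and 10.7%. The median log2 ratio of the members was 0.03, with a range of -3.09 to 3.04, against 0.05 among the 15946 unigenes. Members were thus called more often in both directions while their centre lay where that of the other unigenes did. The calls depend on taking counting error as the only error. With edgeR's exact test and an assumed biological coefficient of variation of 0.2, 7 members were higher and 10 lower, beside 0.819% and 1.73% of all unigenes tested. With 0.4, 0 members were called in either direction, beside 0.0054% and 0.009% of all tested.

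**Figure D4:**
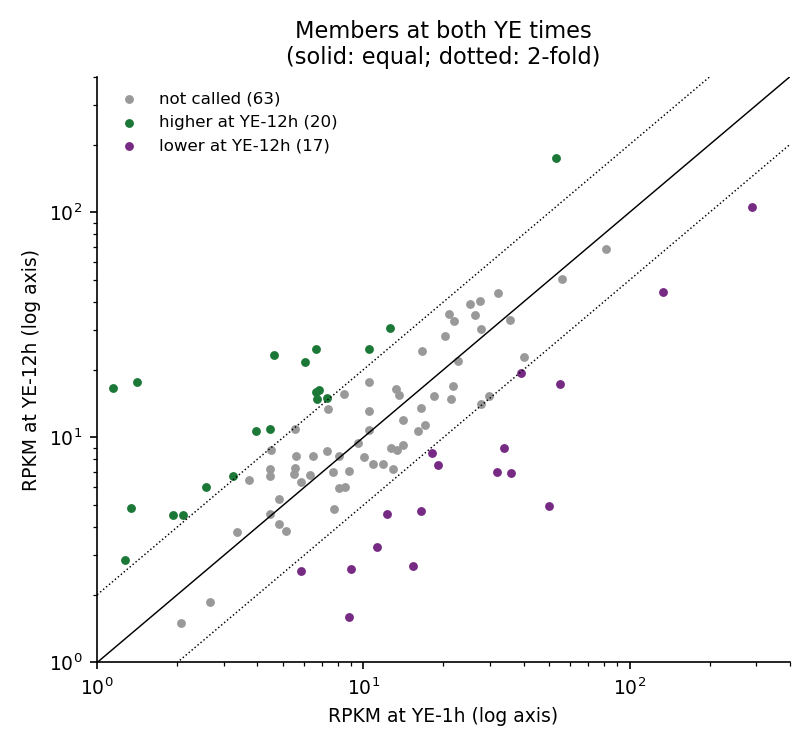
RPKM at YE-1h (horizontal, log axis) and YE-12h (vertical, log axis) for the 100 members, with equal values (solid line) and 2-fold differences (dotted lines). Green points are the 20 called higher at YE-12h, purple points the 17 called lower and grey points the 63 not called. The points far to the upper left are SmiContig2918 and c577_Sye-12h_g1_i1.

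The largest rises from YE-1h to YE-12h were those of SmiContig2918, at a read ratio of 14.5 (95% interval 9.11 to 24.4; edgeR binomial test, adjusted p = 2.9e-59), and c577_Sye-12h_g1_i1, at 12.5 (8.21 to 19.7; adjusted p = 2.26e-61 by the same test). The other ratios of the 20 lay between 2.05 and 5.03. SmiContig2226, named after its values were seen, followed at 5.03 (95% interval 3.96 to 6.45), with 26.3 RPKM in the control, 5.45 and 3.44 after 1 h and 6 h of MeJA, and 4.61 and 23.2 after 1 h and 12 h of YE. Like the first pair it came back near its control level by YE-12h. SmiContig22997 rose 3.71-fold (3.04 to 4.62) and SmiContig20026 3.27-fold (3.08 to 3.48). All 5 were also among those called with an assumed coefficient of variation of 0.2, where SmiContig21741 and SmiContig1813, named after their values were seen, made up the 7. SmiContig21741 had 28.5 RPKM in the control, 3.86 and 1.83 after 1 h and 6 h of MeJA, and 6.04 and 21.7 after 1 h and 12 h of YE. SmiContig1813 had 7.19 RPKM in the control, the lowest of all members, 1.01 and 1.46 after 1 h and 6 h of MeJA, and 1.34 and 4.86 after 1 h and 12 h of YE. Both stood higher at YE-12h than in the other 3 elicited libraries.

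The largest fall was that of SmiContig2326, whose YE-1h reads were 9.99 times those at YE-12h after scaling by the library totals (95% interval 8.37 to 12.0; edgeR binomial test, adjusted p = 2.42e-246). SmiContig26625, named after its values were seen, was next at 5.69 (3.87 to 8.56), with 16.5 RPKM in the control, 3.20 and 1.19 after 1 h and 6 h of MeJA, and 15.3 and 2.69 after 1 h and 12 h of YE. SmiContig118 followed at 5.53 (3.01 to 10.9). SmiContig26625 was near its control level at YE-1h, and SmiContig118 was not, so the fall between the YE times did not start from the same place. SmiContig29625 was 3.01 times as high at YE-1h (2.86 to 3.17) and SmiContig20584 2.75 times (2.67 to 2.83). The smallest ratio among the 17 was 2.01, that of SmiContig3193, named after its values were seen.

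By class, 14 of the 21 members low at YE-1h alone were called higher at YE-12h and 0 lower, and 12 of the 19 low at YE-12h alone were called lower and 0 higher. These directions follow from how the classes were cut. Of the 30 low at both YE times 4 were called higher and 2 lower, and of the 30 low at neither 2 and 3. Most members of these last classes were not called in either direction. SmiContig26747 is an example, with a ratio of YE-12h to YE-1h of 0.935 (95% interval 0.833 to 1.05; edgeR binomial test, adjusted p = 0.388). c15227_Smj-6h_g1_i1 was 1.48 times as high at YE-12h (1.33 to 1.64) and SmiContig2181 1.46 times (1.21 to 1.76), both short of the 2-fold limit.

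**Figure D5:**
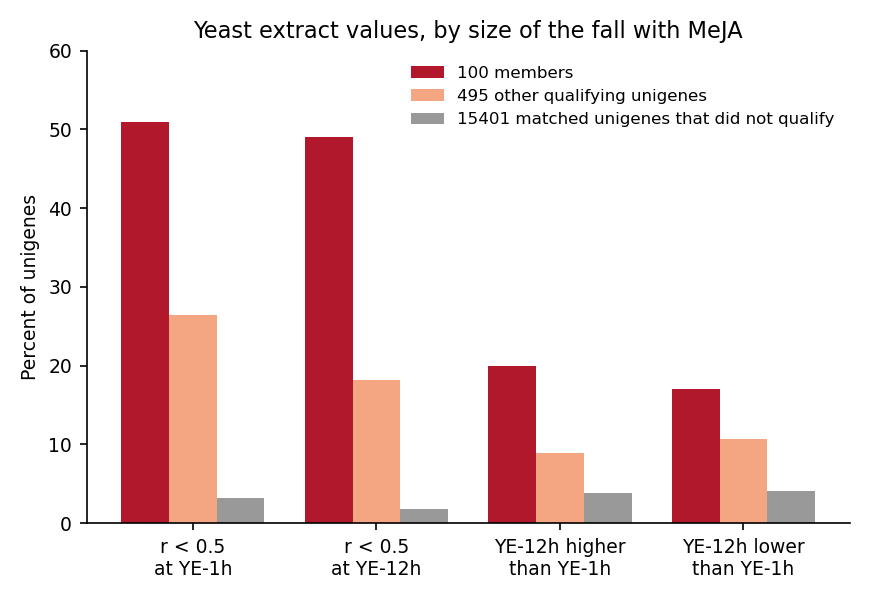
Percent of unigenes with r under 0.5 at either YE time, and percent called higher or lower at YE-12h than at YE-1h, in the 100 members, the 495 other unigenes that met the MeJA thresholds and 15401 unigenes of at least the lowest member's control level that did not. In all 4 sets of bars the members stand highest, for example 51% against 26.5% for the 495 at YE-1h. The bars for r share the control library with the choice of members.

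The unigenes of the set were shorter than most, and some may be parts or forms of one gene. The lengths implied by reads and RPKM ran from 321 to 3553 bp with a median of 1029, against 1304 for the 495 and 1465 for the 15946. A short unigene needs a higher RPKM to reach 100 reads, and whether length had a part in the choice was not tested. Of the members, 83 had names that give no library, and the names of 10 gave the control, 3 MeJA-1h, 2 MeJA-6h and 2 YE-12h. Among the 15946 unigenes these shares were 75.6%, 6.03%, 5.78%, 4.65% and 3.83%, and 10.5% of the 495 gave the control. Only 1 pair shared an assembled gene name, c22254_Smj-1h_g1_i1 and c22254_Smj-1h_g1_i2, both named after their values were seen. The first had 45.2 RPKM in the control, 6.16 and 10.9 after 1 h and 6 h of MeJA, and 27.6 and 14.1 after 1 h and 12 h of YE. The second had 51.1, 4.72, 11.8, 29.8 and 15.2 RPKM in the same order, so the 2 forms went together. SmiContig8261 and SmiContig8262, numbered in sequence and named after their values were seen, also had like courses. SmiContig8261 had 46.6, 11.4, 4.02, 10.5 and 24.6 RPKM in the control, MeJA-1h, MeJA-6h, YE-1h and YE-12h, and SmiContig8262 58.3, 15.3, 6.12, 12.6 and 30.7. SmiContig1792 and SmiContig1793, likewise numbered in sequence and named after their values were seen, had 15.6, 1.98, 2.61, 4.82 and 4.13 RPKM and 12.1, 1.28, 1.81, 3.37 and 3.79 RPKM. SmiContig12149 and c15227_Smj-6h_g1_i1, described above, had like levels in every library without a shared name. Each such pair may count 1 gene more than once, and reads that could fall on either member cannot be assigned. A search for all such pairs was not made.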

How the data were processed

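Total RNA of hairy roots under 5 conditions was sequenced on an Illumina instrument. The authors filtered the reads, assembled them with Trinity into unigenes and deposited, for each unigene and library, a read count and an RPKM value scaled by each library's counted total. The counting program is not given in the sources used here. Deposited counts are whole: the RPKM of 42 low counts implied 0.1 reads or more in excess of the count for 21 of them, and for 0 a shortfall of over 0.1, so decimals appear to have been dropped. Material of 3 replicate samples was mixed per library, so there are no replicates.

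Ratios r used a pseudocount of 1 RPKM. Members were the 100 with the lowest larger r at the MeJA times among unigenes with at least 100 control reads, r under 0.5 at both times and no place on the study's gene lists. The members and lists were chosen with earlier results of these data known. Unigenes with most extreme values were named by rule: the 4 lowest larger r, the 3 highest control RPKM, the 2 lowest and 2 highest r at each YE time, the largest YE-12h to YE-1h ratio in each direction, the 2 members on each side of the limit, and the members of the first part of the closing section; others are marked as named after their values were seen. Read ratios carry exact 95% binomial intervals for counting error only, with no allowance for the choice of members. A library with 0 reads was set to a floor of 3 reads, which on 1 kb is 0.224 RPKM in the control, 0.187 and 0.19 RPKM in the MeJA libraries and 0.157 and 0.147 RPKM in the YE libraries, the 1 h library first. YE-12h and YE-1h were compared with edgeR 4.0.16 binomTest in R 4.3.3 at a false discovery rate of 0.01 and 2-fold. It was tested on simulated data of 27561 unigenes for this pair, where it called 100 of 100 unigenes changed 4-fold, 100 of 100 changed 3-fold and 0 unchanged ones. That simulation drew counting error alone, with no spread between cultures, and only for unigenes with at least 100 expected reads at YE-1h. It thus could not show how often that spread leads to false calls. Alternatives were TMM and DESeq2 1.42.0 scaling, a pseudocount of 0.1, control minimums of 0 and 300 reads, 50 or 200 members, the listed unigenes kept, 1 member per assembled gene, a false discovery rate of 0.05, and an exact test of edgeR in which a biological coefficient of variation of 0.2 or 0.4 was assumed. Tables were handled in Python 3.11.15 with pandas 2.3.3, intervals came from scipy 1.17.1, and plots were drawn with matplotlib 3.10.9.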

Additional observations from a re-analysis of the deposited data

Results flagged for a closer look

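Lower than the control with MeJA, SmiContig29625 had a log2 r of 1.60 at YE-1h and 0.03 at YE-12h, so its value was over 0 at both YE times, although at YE-12h it did not differ from the control beyond counting error. At the YE times 15 members lay on opposite sides of the control, beside 32.5% of the 15946 unigenes with at least 100 control reads and a control level no lower than that of the lowest member. Of the 15, 5 are given here, picked because their reads differed from the control at both times beyond counting error. The control library also chose the members, so such a choice was a way of picking and not a test. SmiContig2326 had a log2 r of 2.52 at YE-1h and -0.56 at YE-12h. SmiContig28860 had 0.83 and -1.39, from 19.8 RPKM in the control, 36.0 at YE-1h and 6.93 at YE-12h. These were the widest swings of the 5. SmiContig30152 had a log2 r of 0.44 at YE-1h and -1.36 at YE-12h, from 24.6 RPKM in the control, 33.8 at YE-1h and 9.0 at YE-12h. SmiContig31143 had 0.38 and -1.15, from 8.46, 11.3 and 3.25 RPKM. The smallest swing of the 5 was that of c20636_Smj-6h_g2_i2, at 0.37 and -0.41, from 30.8, 40.2 and 22.8 RPKM. With 1 library per condition, none of these differences between elicitors or times was tested across cultures.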

How the results depend on the processing

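Each count and median over the members was computed again under the alternatives, 105 values in all. Of these, 98 stayed within 1.5 times the value reported or within its spread, with counts taken as percents of the members. Among the 98, the values with the listed unigenes kept could not change, since 0 listed unigenes met the thresholds. Those with 1 member per assembled gene rest on 99 of the 100 members and could hardly change. The median log2 ratio of YE-12h to YE-1h also passed, at -0.21 with 50 members and 0.17 with a minimum of 300 control reads. The 7 values that did not pass were these. The count of members with r over 2 at YE-1h went from 2 to 1 when members were chosen with no minimum of control reads and to 1 with a minimum of 300, choices that shared 52 and 46 members with the set described. Members called higher at YE-12h than at YE-1h went from 20 to 31 with no minimum. With edgeR's exact test and an assumed variation of 0.2 the calls were 7 higher and 10 lower, and with 0.4 they were 0 and 0, since that test adds variation between cultures that these libraries cannot measure. The cause of the other changes was not tested. No paired analysis was possible because each condition has 1 library. Depth limits the values with MeJA most, where the median member had 59 reads at MeJA-1h and 55.5 at MeJA-6h.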
